A study of Mus musculus with 20 samples.

Results

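The genes described here are the drug and steroid metabolism families of the mouse kidney: cytochromes P450 of families Cyp2, Cyp3 and Cyp4b1, flavin monooxygenases (Fmo), UDP-glucuronosyltransferases (Ugt), sulfotransferases (Sult), glutathione S-transferases (Gst) and the exporters of the Abcb and Abcc families. A probe set, the group of oligonucleotides on the array that reads a transcript, was a member if it named a single gene of these families and its mean intensity over all arrays was 100 or more. This gave 46 probe sets of 41 genes, out of 77 probe sets of the same families and 12422 probe sets without array controls. The members were 11 P450 probe sets, 2 Fmo, 3 Ugt, 3 Sult, 18 Gst and 9 Abcb or Abcc probe sets. The last are transporters and not enzymes, and Ugt8a and Gstz1 act mainly on lipids and amino acids of the body, so the families and not a shared function define the group. The members were thus chosen by their mean intensity and their symbols, and the families were picked with earlier results of these data known. The values nearest the minimum were 106 for Abcb1b, 108 for Sult2b1 and 117 for Abcc1 inside it. Outside it lay Abcb4 at 98.6, Sult1b1 at 96.6 and Cyp3a13 at 96.5. Sult1a1 (93.6) and Abcb1a (49.4) were also outside.

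Total RNA of kidney was measured on 20 arrays, each hybridised with RNA pooled from 3 C57BL/6J mice. Normal mice and Hyp mice, which carry a mutation of Phex on the X chromosome and lose phosphate through the kidney, were each fed a control or a low phosphate diet for 3 or 5 days. The 4 groups of genotype and diet had 5 arrays each, 3 of males and 2 of females. Thus 12 arrays were of males and 8 of females, 12 at 5 days and 8 at 3 days. The labels give no age and not the number of mutated copies in Hyp females, and p-values measure the spread between pools. In such tissue RNA, fewer cells of a type and less RNA per cell cannot be told apart, and values of different probe sets cannot be set against each other.

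These families handle foreign chemicals and the body's own steroids, lipids and signalling molecules. P450s and Fmo enzymes add oxygen to a compound. Ugt, Sult and Gst enzymes then join it to glucuronic acid, sulfate or glutathione, and Abcb and Abcc pumps export the products from the cell. In the kidney most of these genes are active in the proximal tubule, and in rodents many of them are known to differ between the sexes, under the control of androgens and of the rhythm of growth hormone release.

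Some arrays stood apart. Median rank correlations with the other arrays were lowest in arrays 05 to 08, which hold the females at 5 days, 1 from each group: 0.895 to 0.934, against 0.943 to 0.969 elsewhere. The ratio of the 3′ to the 5′ actin probe set, which rises as RNA breaks down, was 1.74 to 2.61 in them and 1.22 to 1.98 in the rest. Summed intensity of 7 adrenal cortex markers was also high in them, 11538 to 13777, against 6743 to 7901 in females at 3 days and 7332 to 9659 in males. Array 10, a pool of Hyp males on low phosphate diet, had a summed intensity of 9 liver markers of 18424, against 994 to 3247 in the other 19 arrays. Albumin (Alb) was 13097 in array 10 and at most 1226 elsewhere, and 8 of the 9 liver markers were highest in that array. Among the members Gsta3 alone was highest in array 10, at 536 against 534 in the next array. All 16 proximal tubule markers on the array had a mean of 100 or more. Phex itself had a mean intensity of 42.2, below the filter, and was not tested.

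**Figure D1:**
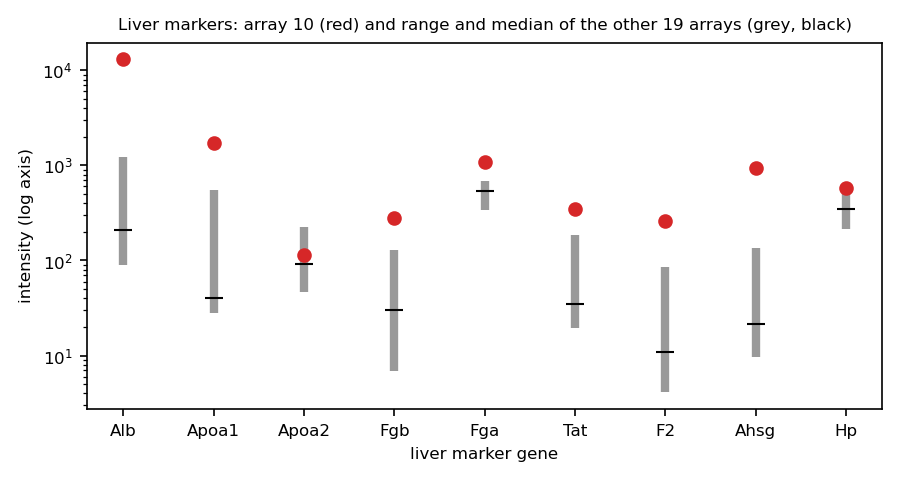
Intensity (log axis) of 9 liver marker genes in array 10 (red points) and, in the other 19 arrays, the range (grey bars) and median (black lines). Array 10 lies above the range of the others for 8 of the 9 genes, with Alb at 13097, while Apoa2 lies inside it.

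Sex was the comparison in which most members moved other than duration, which is treated last. Males had higher levels of Cyp4b1, Cyp2e1, Fmo5, Ugt2b5 and Ugt8a, by more than 1 on the log2 scale, and females had higher levels of Abcc3, Gsta4, Gsta2, Ugt2b34 and Cyp2d26. In a limma model of log2(intensity + 38) with groups and with sex and days as strata, 19 of 46 members passed an adjusted p of 0.05, where 16.6% of the 8695 probe sets tested did. Of the 19, 9 were higher in females, where 7.95% of all probe sets were, and 10 were lower, where 8.67% were. The median size of the difference, in log2 units, was 0.31 over the members and 0.17 over all probe sets. Among the 41 members whose mean reached the minimum in each sex and in each group, 16 passed. By family, 4 of 11 P450 probe sets, 1 of 2 Fmo, 3 of 3 Ugt, 8 of 18 Gst, 3 of 9 transporters and 0 of 3 Sult probe sets passed. The female means of Fmo5 (74.3) and Ugt8a (64.5) and the male mean of Abcb1b (83.3) lay below the minimum. The Fmo, Ugt and transporter counts hold these members, so nothing is read from those counts.

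Each run of array numbers holds 1 sex, so sex can be set apart from array set only through the spread between sets. With the array set as a random block 7 members passed, namely Cyp4b1, Ugt8a, Cyp2e1, Fmo5, Gsta2, Abcc3 and the Gstm1 probe set 161633_r_at, where 1.12% of all probe sets did. Of the 41 members above the minimum in every group and sex, 5 passed with the block. Without arrays 05 to 08, 3 members passed, namely Cyp4b1, Ugt8a and Cyp2e1, where 0.219% of all probe sets did. Females then remain only at 3 days, so this is the sex difference at 3 days. It is taken between 1 array set of each sex. Of the 3, Ugt8a reached the minimum only through the males.

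Among the P450s, Cyp4b1 (103353_f_at), which oxidises fatty acids and some foreign chemicals in kidney and lung, had an intensity of 3818 at the lowest, 14935 at the median and 20507 at the highest in the 12 male arrays. In the 8 female arrays it was 867, 2663 and 7846. The ranges overlapped only through the 2 lowest male arrays, 3818 and 3942, both normal mice on low phosphate diet, and 3 female Hyp arrays at 4465 to 7846. The log2 difference, female minus male, was -2.18 ± 0.23 (SE; limma adjusted p = 2.3e-05), and it was -2.21 when array sets were blocked (limma adjusted p = 0.0033). Cyp2e1, the ethanol-inducible P450 that oxidises small molecules, ran from 2083 through a median of 5802 to 12637 in males and from 865 through 1368 to 3293 in females. Its ranges overlapped, and its difference was -1.70 ± 0.25 (SE; limma adjusted p = 0.00041). Cyp2j5, a renal epoxygenase of arachidonic acid, differed by -0.43 (limma adjusted p = 0.018), a call lost without array 15. Cyp2d9, a P450 known for steroid hydroxylation in male mouse liver, was 100 to 578 in males and 94.2 to 242 in females, and its difference of -0.69 did not pass (limma adjusted p = 0.057). A brighter probe set shared by Cyp2d12 and Cyp2d9, 94539_f_at, is no member. It differed by -0.10 (limma adjusted p = 0.61), with a median of 1996 in males and 2215 in females. Cyp2d26, of the same subfamily, ran from 3055 through 3772 to 5017 in males and from 3992 through 5401 to 7003 in females, and was higher in females by 0.47 (limma adjusted p = 0.0011).

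Fmo5, a flavin monooxygenase that inserts oxygen into carbonyl compounds, ran from 140 through 344 to 1011 in males and from 28.9 through 75.7 to 116 in females. No female array reached the lowest male array. Its log2 difference was -2.04 ± 0.31 (SE; limma adjusted p = 0.00056). Fmo1, the other Fmo member, was 6569 to 8945 in males and 6538 to 10629 in females, a difference of 0.19 (limma adjusted p = 0.13). The female mean of Fmo5, 74.3, lies below the minimum that chose the members, as does that of Ugt8a, 64.5, so both entered through the males, where they are high.

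All 3 Ugt members differed between the sexes, in both directions. Ugt8a, which makes galactosylceramide, a lipid of myelin and kidney, ran from 145 through 199 to 320 in males and from 17.2 through 53.3 to 131 in females. The ranges did not overlap, and the difference was -1.31 ± 0.16 (SE; limma adjusted p = 8.4e-05). Ugt8a and Fmo5 were the 2 of 46 members whose 12 male arrays all lay above the 8 female arrays, where 0.092% of all probe sets did so. Both reached the minimum only through the males, so nothing is read from this count, and 0 of the 41 members above the minimum in every group and sex did so. No member had all female arrays above the male arrays, where 0.0805% of all probe sets did. Ugt2b5, of the subfamily that conjugates steroids and drugs, ran from 250 through 670 to 1482 in males and from 39.4 through 186 to 256 in females, with a difference of -1.59 ± 0.27 (SE; limma adjusted p = 0.0011). Ugt2b34, of the same subfamily, went the other way, from 357 through 420 to 562 in males to 511 through 622 to 770 in females, a difference of 0.53 (limma adjusted p = 0.0017). In the blocked fit Ugt2b5 (limma adjusted p = 0.060) and Ugt2b34 (limma adjusted p = 0.10) did not pass.

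**Figure D2:**
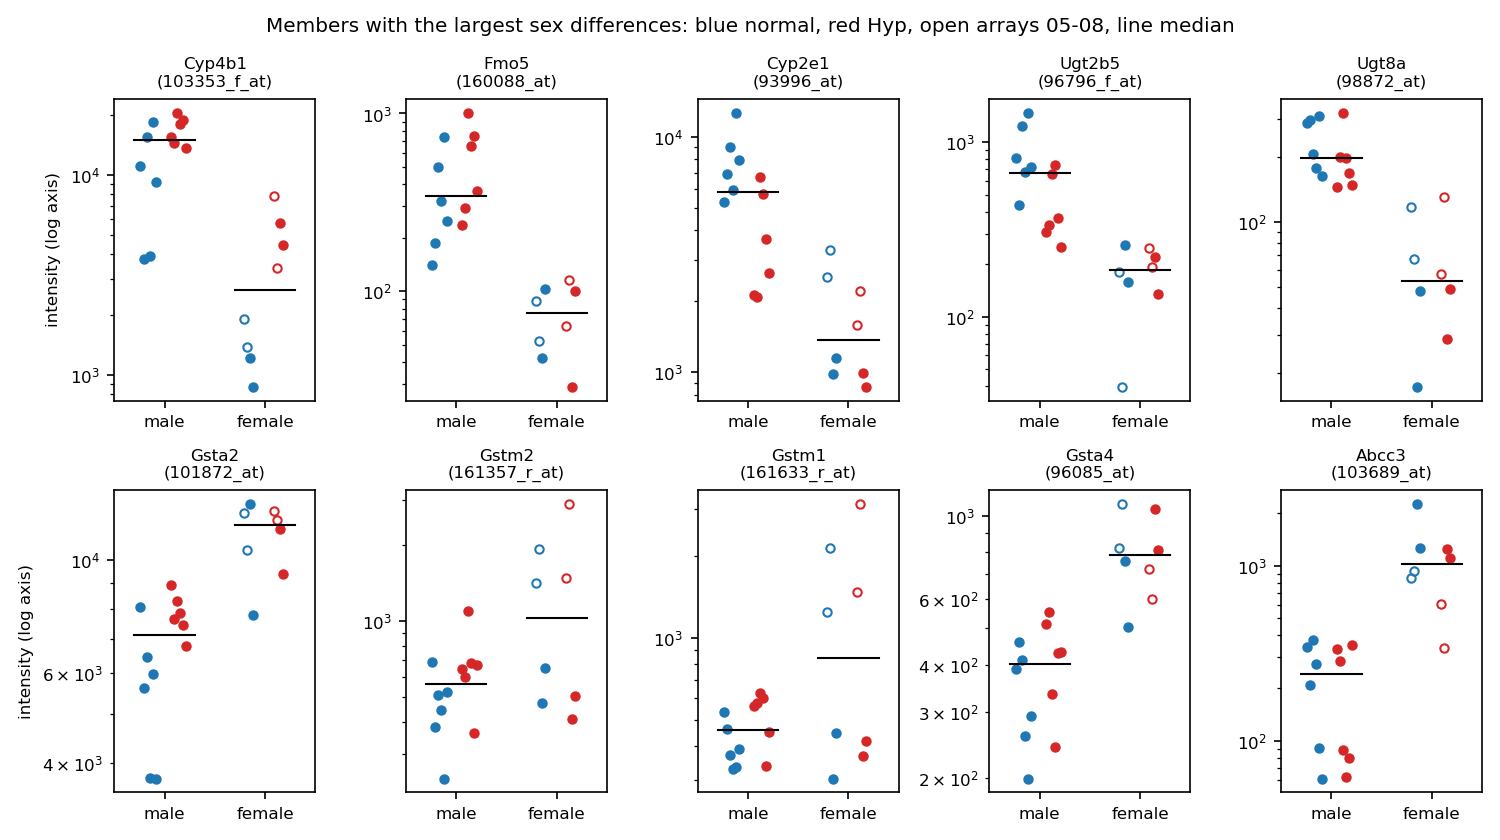
Intensity (log axis) in the 12 male and 8 female arrays of the 5 members with the largest fall and the 5 with the largest rise in females. Blue points are normal and red points Hyp mice, open points are arrays 05 to 08, and the line is the median. Male and female points do not overlap for Fmo5 and Ugt8a, and the open points carry the female rise of the Gstm1 and Gstm2 probe sets.

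Among the transporters, Abcc3, a basolateral exporter of glucuronides, was the member with the largest rise in females. It ran from 60.7 through 242 to 377 in males and from 338 through 1022 to 2251 in females, and 1 female array, at 338, lay inside the male range. The difference was 2.10 ± 0.32 (SE; limma adjusted p = 0.00056). In the 4 female arrays at 3 days it was 1108 to 2251, against 80.2 to 377 in the 4 male arrays at 3 days. Abcc2, an apical exporter of conjugates, was lower in females, 444 to 830 against 477 to 1222, by -0.41 (limma adjusted p = 0.035), a call lost on leaving out array 07, 08, 12, 14, 16 or 18. Abcb1b, a rodent multidrug P-glycoprotein, was 64.2 to 235 in females and 42.5 to 156 in males, a difference of 0.50 (limma adjusted p = 0.0072). Its male mean, 83.3, lies below the minimum and its female mean, 141, above it, so its call by sex is a description only. The other 6 transporters did not pass.

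Of 18 Gst probe sets 5 were higher in females, 3 were lower and 10 did not pass. Of the alpha class, Gsta2, a conjugating enzyme that also reduces lipid peroxides, ran from 3734 through 7114 to 8927 in males and from 7787 through 11701 to 12834 in females. Only 1 female array, at 7787, lay inside the male range, and the difference was 0.78 ± 0.10 (SE; limma adjusted p = 0.00021). Gsta4, which detoxifies aldehydes of lipid peroxidation, ran from 199 through 402 to 554 in males and from 504 through 784 to 1073 in females, a difference of 1.00 ± 0.19 (SE; limma adjusted p = 0.0021). Gsta3 differed by 0.30 (limma adjusted p = 0.062). Gstp1, of the pi class, and Gstz1, which isomerises maleylacetoacetate in tyrosine breakdown, were lower in females by -0.50 (limma adjusted p = 0.016) and -0.33 (limma adjusted p = 0.018). Gstz1 lost its call without array 15. The Gstp1 difference was -0.16 at 3 days and -0.85 at 5 days.

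In the mu class Gstm1, Gstm2, Gstm3 and Gstm5 each had several member probe sets, and those of 1 gene disagreed in the sex comparison. Gstm1 161633_r_at was 1243, 2142, 1479 and 3120 in arrays 05 to 08 and 303 to 626 in the other 16 arrays, females at 3 days included. Its female minus male difference was 1.83 at 5 days and 0.04 at 3 days, which averaged to 0.93 (limma adjusted p = 0.00028). Gstm1 93543_f_at, the other probe set of the gene, was 8993 to 13735 in males and 8960 to 12635 in females, a difference of 0.02 (limma adjusted p = 0.92). Gstm2 161357_r_at (1.65 at 5 days, 0.05 at 3 days) and Gstm3 97682_r_at (1.10 at 5 days, 0.26 at 3 days) followed the same course. Gstm2 93009_at and Gstm3 97681_f_at did not pass. Gstm5 100629_at was lower in females by -0.40 (limma adjusted p = 0.013), -0.71 at 5 days and -0.09 at 3 days, and the other 2 Gstm5 probe sets did not pass. In the naming of these arrays the letters f, r and s mark probe sets designed under relaxed rules or shared by related genes, and 11 member probe sets carry one, Cyp4b1 and Ugt2b5 among them.

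**Figure D3:**
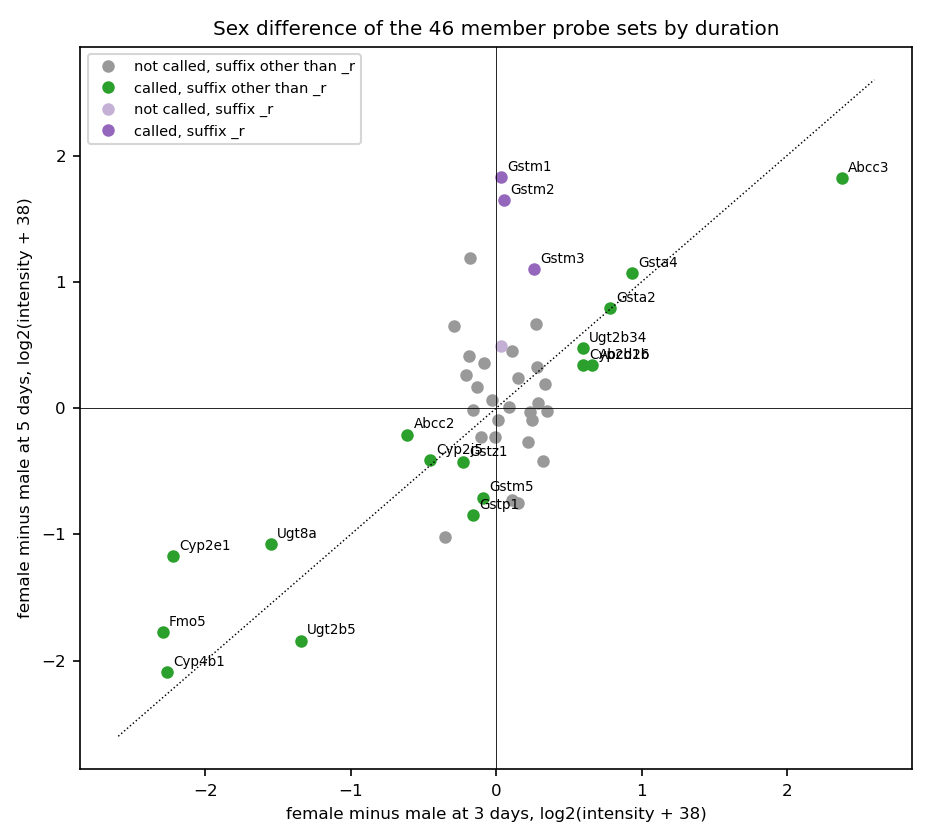
Female minus male difference of log2(intensity + 38) at 3 days (horizontal) and 5 days (vertical) for the 46 member probe sets, with equal differences on the dotted line. Green and dark purple points passed the adjusted p of 0.05 in the sex comparison, and the dark purple points, Gstm probe sets with the letter r, lie near 0 at 3 days and at 1.10 to 1.83 at 5 days.

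The call by sex rests on the mean of both durations, so the sign of the called members at each is no separate support. Over all 46 members the sign agreed in 31. At 3 days, where arrays 05 to 08 take no part, Cyp4b1 differed by -2.27, Fmo5 by -2.29, Cyp2e1 by -2.22 and Ugt8a by -1.55. Abcc3 differed by 2.38, Gsta4 by 0.93 and Gsta2 by 0.78. In a fit of the 8 arrays at 3 days alone, 4 members passed, Abcc3, Cyp2e1, Gsta4 and Ugt8a, where 0.541% of all probe sets did. There each sex is 1 array set, so sex and array set cannot be told apart. Of the 4, Ugt8a reached the minimum only through the males. In the 10 arrays of normal mice alone 10 members passed, where 3.65% of all probe sets did. In the 10 arrays of Hyp mice alone, a fit chosen after seeing the data, 1 member passed, Cyp4b1, where 0.437% did. No member passed the test of genotype by sex (limma, 0% of all probe sets).

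The stretches of 250 bases before the start of transcription are shown for 4 members called by sex, of which Ugt8a reached the minimum only through the males. Cyp4b1, Cyp2e1 and Ugt8a are the members called with the array set as a block and without arrays 05 to 08, and Gsta2 is a member that moved the other way. They are RefSeq sequences of build GRCm38.p6, written 5′ to 3′ along the gene: Cyp4b1 from chr4:115647722-115647971 (minus strand), Cyp2e1 from chr7:140763569-140763818 (plus strand), Ugt8a from chr3:125938653-125938902 (minus strand) and Gsta2 from chr9:78347146-78347395 (minus strand). Capitals mark every match to a searched motif.
Cyp4b1: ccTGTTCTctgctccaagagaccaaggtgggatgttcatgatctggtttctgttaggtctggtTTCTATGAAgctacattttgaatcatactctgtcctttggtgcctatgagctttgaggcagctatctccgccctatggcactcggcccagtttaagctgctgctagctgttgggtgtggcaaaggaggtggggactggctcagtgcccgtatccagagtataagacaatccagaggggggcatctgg
Cyp2e1: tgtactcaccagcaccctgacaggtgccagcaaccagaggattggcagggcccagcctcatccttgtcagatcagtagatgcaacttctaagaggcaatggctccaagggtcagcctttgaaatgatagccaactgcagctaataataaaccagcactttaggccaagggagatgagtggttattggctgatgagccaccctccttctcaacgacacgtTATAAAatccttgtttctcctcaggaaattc
Ugt8a: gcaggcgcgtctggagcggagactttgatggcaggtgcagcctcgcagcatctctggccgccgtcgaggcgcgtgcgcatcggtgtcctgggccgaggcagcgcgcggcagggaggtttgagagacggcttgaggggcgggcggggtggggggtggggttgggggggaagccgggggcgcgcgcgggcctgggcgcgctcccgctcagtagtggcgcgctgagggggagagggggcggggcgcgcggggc
Gsta2: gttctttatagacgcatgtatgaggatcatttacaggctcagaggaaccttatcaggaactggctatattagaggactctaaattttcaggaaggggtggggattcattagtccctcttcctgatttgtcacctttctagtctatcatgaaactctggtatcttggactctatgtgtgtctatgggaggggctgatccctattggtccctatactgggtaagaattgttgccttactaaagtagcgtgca
Searched on both strands were AGAACA, the core bound by androgen and glucocorticoid receptors, TTCNNNGAA, bound by STAT5, TGACNNNGC, the core of the antioxidant response element, and GTTAAT, bound by HNF1. TATAAA, the TATA box, was searched along the gene. In Cyp4b1 the receptor core, as TGTTCT, starts 248 bases before the start and TTCTATGAA starts 187 before it, with no overlap between the motifs. Cyp2e1 has TATAAA 31 bases before the start. Ugt8a and Gsta2 held none of these letters in this window. Over 32851 promoters, 16.1% held AGAACA, 7.02% TTCNNNGAA, 10.2% TGACNNNGC, 6.43% GTTAAT and 7.59% TATAAA. Promoters were found for 34 of the 41 member genes, and of their 38 promoters 6 held AGAACA and 2 held TTCNNNGAA.

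Other genes of the same chemistry, listed apart from the members, were set beside them in the sex comparison. All calls of listed genes by sex come from the fit without a block for array set. Of 22 other oxidising and reducing enzymes and electron donors tested, 1 was higher in females, Cbr1, a carbonyl reductase (1.16), and 8 were lower. The 8 were Cyb5a, Cyb5b and Cyb5r3 of the cytochrome b5 electron chain, Ephx2, Adh1, Adh5, Aldh3a2 and Akr1c21. Adh1, an alcohol dehydrogenase, differed by -1.03 and Akr1c21, a steroid-reducing enzyme, by -1.02. Of 12 steroid enzymes, 0 were higher and 4 were lower, Hsd3b2 (-1.31), Hsd3b6 (-0.81), Hsd11b2 (-0.48) and Hsd17b11 (-0.60). All 12 had a negative difference, and the list's median was -0.42 against 0.02 over all probe sets. Of 18 genes of glutathione, glucuronide and sulfate supply and of other conjugation, Mgst1 was higher, and Papss1, Gss, Nat2 and Tpmt were lower. Of 12 drug and organic ion transporters outside the member families, Abca1 was higher and Slco3a1, Slc22a2, Slc22a6 (-0.86) and Slc22a12 were lower.

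Of 18 regulators of these genes, Nr1i3, the nuclear receptor CAR (0.43), Ahr, the dioxin receptor (0.32), and Nfe2l2, the oxidant sensor NRF2 (0.32), were higher in females. Hnf4a (-0.95), Rxrb (-0.64), Ghr, the growth hormone receptor (-0.74), and Stat5b, which carries its signal (-0.61), were lower, each at a limma adjusted p under 0.05. Stat5b was dim, with a mean of 99.8. Summed intensity of the 23 regulators on the array was 10057 to 12425 in arrays 05 to 08. It was 12082 to 13196 in females at 3 days and 12152 to 14359 in males. The part of arrays 05 to 08 in the regulator calls was not tested. Of 7 listed genes with male-biased expression in kidney, 4 were lower in females and Kap differed by 0.06. Proximal tubule markers numbered 0 higher and 2 lower of 16, and markers of later segments 0 and 0 of 10. Of 9 macrophage and lymphocyte markers 2 were higher, Cd79a and Mpeg1, and 2 lower, C1qa and Csf1r. Of 5 adrenal cortex markers 3 were higher in females, Cyp21a1, Star and Nr5a1. That list was high in arrays 05 to 08 as given above, and its part in the member differences was not tested.

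Without a block for array set, 2 members were called by genotype. Cyp4b1 and Abcb1b were higher in Hyp than in normal mice averaged over diets, and no member was called lower. Abcb1b reached the minimum only through the Hyp arrays, so nothing is read from its call. In normal males on control diet Cyp4b1 was 11113, 15462 and 18406, and in normal females 1902 and 1211. In Hyp males on control diet it was 15522, 20507 and 18913, and in Hyp females 7846 and 5771. The Hyp female arrays stood above the normal female arrays, and the ranges of the male arrays overlapped. On low phosphate diet the normal males had 3818, 3942 and 9253 and the normal females 1374 and 867. The Hyp males on that diet had 14409, 17911 and 13566 and the Hyp females 3424 and 4465. Within each sex, every Hyp array on low phosphate diet lay above every normal array on that diet.

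In the limma fit the Cyp4b1 difference, Hyp minus normal, was 1.34 ± 0.22 averaged over diets (SE; adjusted p = 0.0035). It was 1.65 ± 0.31 on low phosphate diet (limma adjusted p = 0.022) and 1.03 ± 0.31 on control diet (limma adjusted p = 0.31). Members called were 2 of 46 for the average, where 1.28% of all probe sets passed (0.771% higher, 0.506% lower), 1 of 46 on low phosphate diet, where 0.357% did, and 1 of 46 on control diet, where 0.253% did. Among the 41 members above the minimum in every group and sex, 1 was called for the average, Cyp4b1. Within array sets that hold both genotypes the Cyp4b1 difference was positive in 4 of 4 on each diet, 0.29 to 2.22 on control and 1.29 to 2.32 on low phosphate diet. Such counts within sets were not taken over all probe sets. The averaged call held on leaving out any array. The call on low phosphate diet was lost on leaving out array 02, 08, 10, 12, 14, 16 or 18. Without array 10, with its high liver markers, the difference was 1.63 on low phosphate diet (limma adjusted p = 0.069) and 1.33 averaged over diets (limma adjusted p = 0.0090).

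In the 4 Hyp female arrays Cyp4b1 was 3424 to 7846, and in the 4 normal female arrays 867 to 1902, with medians 3.96-fold apart. Of 46 members, Cyp4b1 was the 1 whose genotypes did not overlap in females, where 1.87% of all probe sets did not. In males it ran from 13566 to 20507 in Hyp and from 3818 to 18406 in normal mice, with medians 1.64-fold apart. The difference between the sexes was 1.04 and did not pass (limma adjusted p = 0.78).

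Abcb1b was dim, with a mean of 75.2 in normal mice on control diet and 66.3 on low phosphate diet, so it reached the minimum of 100 only through the Hyp arrays. Its values by genotype are therefore a description of a member that had to be higher in one of the groups. In normal males on control diet it was 42.5, 45.5 and 45.2, and in Hyp males 119.5, 101.1 and 156.2. In normal females on control diet it was 91.1 and 152, and in Hyp females 173 and 226. Thus the Hyp arrays stood above the normal arrays within each sex on this diet, which was not counted over all probe sets. On low phosphate diet it was 52.8, 54.5, 70.4 (males), 64.2 and 89.8 (females) in normal mice. In Hyp mice on that diet it was 88.8, 74.1, 149 (males), 93.0 and 235 (females). Over both diets the 6 Hyp male arrays, 74.1 to 156, did not overlap the 6 normal male arrays, 42.5 to 70.4, which held for 1 of 46 members and 0.909% of all probe sets. The difference averaged over diets was 0.71 ± 0.11 (SE; limma adjusted p = 0.0018), a call that held on leaving out any array. It was 0.82 ± 0.15 on control diet (limma adjusted p = 0.025) and 0.60 ± 0.15 on low phosphate diet (limma adjusted p = 0.14). The call on control diet was lost on leaving out array 01, 03, 07, 09, 11, 13, 17 or 19. With quantile normalization it was lost as well (0.75, adjusted p = 0.14). As Abcb1b entered through the Hyp arrays, nothing is read from its count of 1 of 46 or from its calls by genotype. The sum of the adrenal cortex markers was 7797 to 12642 in normal and 7901 to 11538 in Hyp mice on control diet, and 0 of its 5 tested genes were called by genotype. Averaged over diets, 2 of 16 proximal tubule markers were lower in Hyp mice, Slc4a4 (-0.41) and Slc2a2 (-0.34). Of the 16, 15 had a negative difference, and the list's median was -0.11 against 0.02 over all probe sets. Of 10 markers of later segments 3 were higher, Slc12a3, Kcnj1 and Slc4a1, and Calb1 was lower (-0.71). The part of these markers in the Cyp4b1 and Abcb1b differences was not tested.

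**Figure D4:**
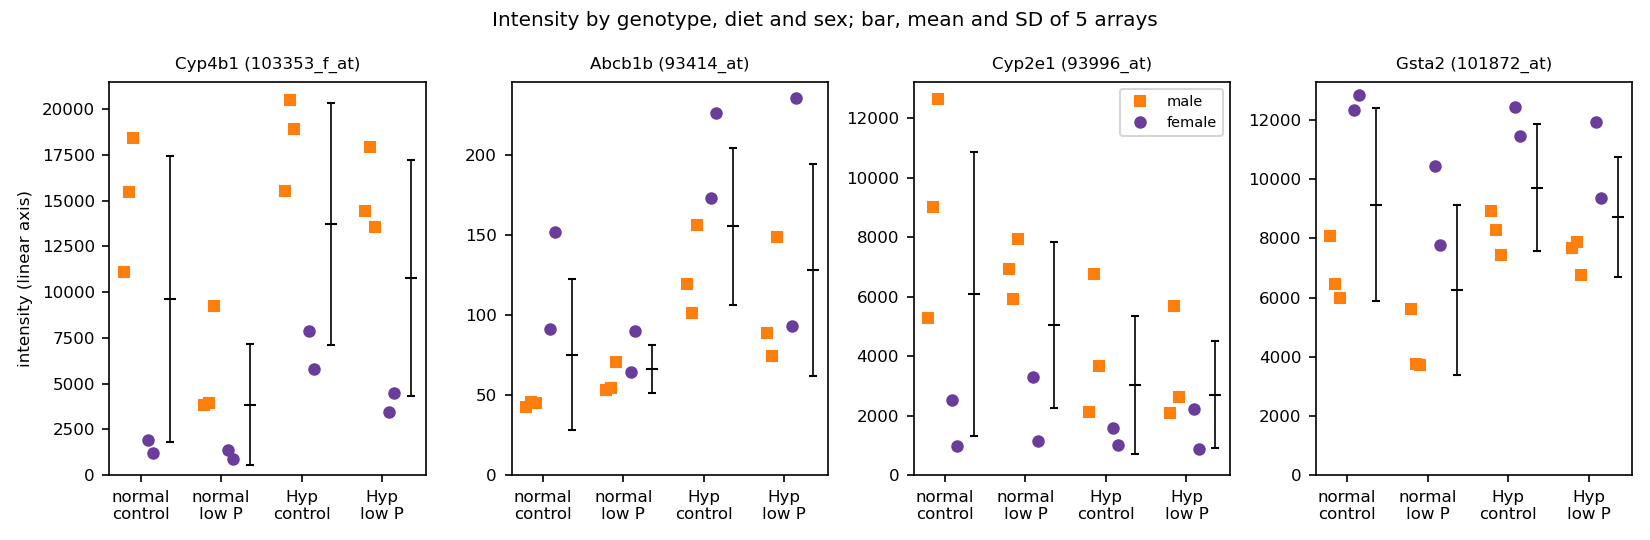
Intensity (linear axes from 0) of Cyp4b1, Abcb1b, Cyp2e1 and Gsta2 in each array, by genotype and diet, with males as orange squares and females as violet circles, and the mean and SD of the 5 arrays of each group beside them. Hyp females exceed normal females for Cyp4b1, 3424 to 7846 against 867 to 1902, and Hyp males exceed normal males for Abcb1b. As Abcb1b reached the minimum only through the Hyp arrays, nothing is read from its difference.

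With the array set as a fixed block, 4 members passed for genotype averaged over diets, where 1.12% of all probe sets did. Gstt1, a theta class transferase of small halogenated compounds, then differed by 0.45 (limma adjusted p = 0.0013), against 0.24 without the block (limma adjusted p = 0.36). Its Hyp array was above its normal array in 4 of 4 sets on control diet (0.21 to 0.54) and in 4 of 4 on low phosphate diet (0.40 to 0.57). These counts were not taken over all probe sets. Cyp2e1 differed by -0.88 with the block (limma adjusted p = 0.036) and by -0.84 without it (limma adjusted p = 0.11). In males it was 2083 to 6759 in Hyp and 5265 to 12637 in normal mice, and in females 865 to 2220 and 980 to 3293. The ranges overlapped in both sexes. Cyp2j5 had a difference of -0.41 that did not pass (limma adjusted p = 0.097). Outside the members, Aldh1a1 (0.69) and Nfe2l2 (0.31) were higher in Hyp mice averaged over diets.

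Low phosphate diet changed no member past the threshold in limma. In normal mice 0 of 46 members passed, where 0.184% of all probe sets did, and 6 had an unadjusted p under 0.05, where 8.56% of all probe sets did. In Hyp mice 0 passed, where 0.15% did, and 0 had an unadjusted p under 0.05, where 4.59% did. Averaged over genotypes 0 passed, where 0.472% did, and 9 had an unadjusted p under 0.05, where 9.75% did. The size of the difference in normal mice had a median of 0.17 over the members and 0.12 over all probe sets, and in Hyp mice 0.10 and 0.11.

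The smallest p in normal mice belonged to Gsta2. On control diet its males were 8090, 6443 and 5989 and its females 12357 and 12834. On low phosphate diet its males were 5617, 3747 and 3734 and its females 10439 and 7787. Within each sex the low phosphate arrays lay below the control arrays, and within array sets the difference was negative in 5 of 5, -0.78 to -0.24. The fitted difference was -0.59 ± 0.14 (SE; limma adjusted p = 0.11). Blocking on array set brought it past the threshold, for normal mice (-0.59, limma adjusted p = 0.020, 1 of 46 members where 0.667% of all probe sets passed) and averaged over genotypes (-0.37, limma adjusted p = 0.025, 1 of 46 members where 1.12% did).

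Cyp4b1 in normal males had intensities of 11113, 15462 and 18406 on control and of 3818, 3942 and 9253 on low phosphate diet, without overlap. The fitted difference over both sexes was -1.08 ± 0.31 (SE; limma adjusted p = 0.26), and it was negative in 5 of 5 array sets. With the block the adjusted p was 0.073. In Hyp mice the difference was -0.47 (limma adjusted p = 1.0). Besides Cyp4b1 and Gsta2, Gstk1, Gstm1 93543_f_at and Ugt2b5 were negative in 5 of 5 array sets in normal mice. Gsto1 and Gstt2 were positive in 5 of 5. These counts, and the lack of overlap between diets within a sex, were not taken over all probe sets. Gstt2 in normal mice averaged 2375 ± 274 for control and 3047 ± 159 for low phosphate diet (SD, n = 5 each), a difference of 0.36 (limma adjusted p = 0.29). Cyp2d26 differed by 0.31 (limma adjusted p = 0.35) and Ugt2b5 by -0.95 (limma adjusted p = 0.43). In Hyp mice the smallest p values were those of Gstm3 97682_r_at and Gstm1 161633_r_at (0.32 each) among positive differences and of Abcb1b (-0.26) and Cyp4b1 among negative ones.

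**Figure D5:**
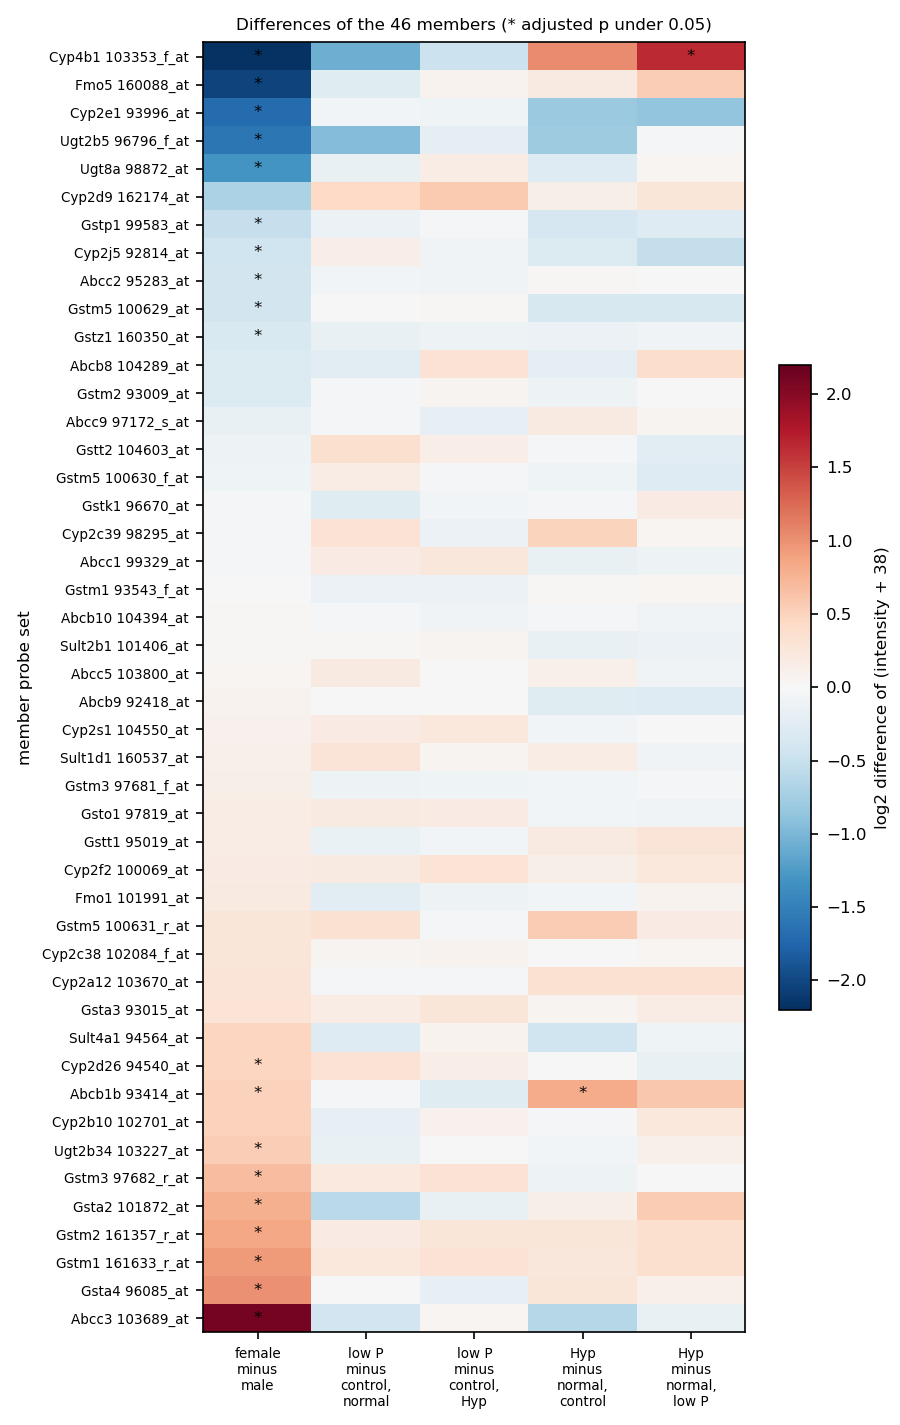
Differences of log2(intensity + 38) of the 46 member probe sets (rows, ordered by the sex difference) in 5 comparisons (columns), from blue (lower) to red (higher), with a star at adjusted p under 0.05. Stars stand at 19 members in the sex column, at 1 in each genotype column and at 0 in the diet columns.

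The test of whether the diet response differed by genotype called 0 of 46 members, where 0.046% of all probe sets passed, and 1 had an unadjusted p under 0.05, Gsta2 (0.43), where 3.23% did. Diet by sex called 0 of 46 (0% of all probe sets), with 1 unadjusted p under 0.05, Gstm1 161633_r_at, where 3.61% of all probe sets had one. Genotype by sex gave 4 unadjusted p under 0.05, Ugt2b5 (1.34), Cyp4b1 (1.04), Cyp2b10 (-0.74) and Gsta2 (-0.45), each with a limma adjusted p of 0.78. Over all probe sets 6.23% had an unadjusted p under 0.05 there. In Ugt2b5 the normal males on control diet were 815, 1246 and 1482 and the Hyp males 306, 662 and 366, while the females were 180 and 256 in normal and 246 and 220 in Hyp mice.

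Duration was tied to the array sets. Between 5 and 3 days 21 of 46 members passed, 10 higher and 11 lower at 5 days, where 40.9% of all probe sets did (20.7% higher and 20.2% lower), so the share of members lay near the share of all. With the array set as a block 4 members passed, namely Gstm1 161633_r_at, Gstm2 161357_r_at, Gstm5 100629_at and Gstp1, where 12.1% of all probe sets did. Without arrays 05 to 08, which leaves the comparison of days to males alone, 0 passed, where 0.299% did. Control mice at 3 and 5 days were in different array sets, so duration and array set cannot be told apart.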

How the data were processed

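Oligonucleotide arrays were hybridised with kidney RNA of normal and Hyp mice, 20 arrays in 4 groups of 5. The values deposited by the authors are linear intensities, 1 for every probe set on every array. From the values, each array was scaled to a common trimmed mean (500.254 to 500.309 with 2% cut at each end), and array medians ran from 185.75 to 228.15. The software and its settings are not given in the sources used here. Scaling to a common mean makes differences relative to all probe sets of an array. The number of arrays limits the precision.

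Of 12488 probe sets, 66 controls were left out. GEO's platform annotation paired 10833 of the rest with 1 gene, 396 with several and 1193 with none, and 10817 of the first matched RefSeq. Values were tested as log2(intensity + 38), the 20th percentile as offset, over the 8695 probe sets with a mean intensity of at least 79.4. limma 3.58.1 in R 4.3.3 fitted the 4 groups with strata of sex and days on all 20 arrays (13 residual degrees of freedom, 11 where sex interactions were added). Benjamini-Hochberg adjustment ran over all 8695 probe sets within each of 11 comparisons, with a threshold of 0.05. Array sets are runs of title numbers (01 to 04, 05 to 08, 09 and 10, 11 to 14, 15 to 18, 19 and 20), which the labels do not call batches. As a block they were fixed for diet and genotype and random for sex and days (correlation 0.30). No array pair held identical values.

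Every member past the threshold in a comparison was counted. Those with the largest changes, and some always examined, were described in full, and where none passed, the 2 of each sign with the lowest p. The members and lists were chosen with earlier results of these data known. Alternatives were another offset, quantile normalization, other filters, trended and robust moderation, array set blocks, and fits without arrays or groups of arrays. The script was tested on simulated data. Figures were drawn with matplotlib 3.10.9, tables with pandas 2.3.3 in Python 3.11.15.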

Additional observations from a re-analysis of the deposited data

Results flagged for a closer look

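In each group of 5 arrays, a value was listed where its gap to the nearest other array was unusually large against the group's range. Over 132 groups of 33 probe sets, 21 values were listed. The rule lists about 1 in 20 groups by chance where all 5 arrays share a distribution. Each group held both sexes and both durations, so that rate does not apply here.

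Most lay in arrays 05 to 08, the females at 5 days. Gstm1 161633_r_at stood above its groups in all of them, at 1243 in array 05, 2142 in array 06, 1479 in array 07 and 3120 in array 08. Gstm1 93543_f_at was high in arrays 05 (12635) and 06 (12633). Gstm2 161357_r_at was high in arrays 06 (1921) and 08 (2884), and Gstm3 97682_r_at in the same arrays (1324 and 1528). Cyp2b10 was 431 in array 05 and 619 in array 06, against at most 227 and 218 in the rest of their groups. Cyp2f2 was 457 in array 06 and 303 in array 07, and Sult1d1 was 4148 in array 06 against at most 2606.

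The other listed values were single arrays. Abcc3 was 1108 in array 18, a female Hyp array on low phosphate diet, against 61.9 to 353 in its group. That value was the lowest of the females at 3 days, 1108 to 2251. Abcc2 was 1219 in array 12, Cyp2c39 937 in array 01 and Cyp2d9 578 in array 09. Cyp2j5 was 620 in array 13, and Cyp2d26 was 5284 in array 17. The Abcc2 and Cyp2j5 values lay inside the ranges of males at 3 days, 986 to 1222 and 601 to 742. The Cyp2d26 value was the lowest of females at 3 days, 5284 to 7003. Those of Cyp2c39 and Cyp2d9 were the highest of males at 5 days.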

How the results depend on the processing

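The 19 members called by sex became 7 with the array set as a block, 3 without arrays 05 to 08, 4 in arrays of 3 days, 10 in normal mice and 1 in Hyp mice. The last fit was chosen after seeing the data. Leaving out each array gave 17 to 22, the lowest without array 15. For days, 21 became 4 with the block and 0 without arrays 05 to 08 (16 to 23 leaving out each array). The Cyp2b10 difference between days turned to -0.075 without arrays 05 to 08. Without those arrays, sex is compared at 3 days only and days in males only. Diet in normal mice and diet averaged over genotypes each went from 0 to 1 with the block. Genotype on control diet went from 1 to 0 with quantile normalization, the median filter, trended and robust moderation, without arrays 05 to 08, without arrays 09, 10, 19 and 20, without terms for sex and days, in males only and in females only (0 to 1 leaving out each array). The median filter removes Abcb1b. On low phosphate diet 1 became 2 with moderation, the block, or without arrays 09, 10, 19 and 20, and 0 without arrays 05 to 08, without those terms, in males only and in females only (0 to 1 leaving out each array). Averaged over diets, 2 became 1 with the median filter, 4 with the block, and 0 without those terms, in males only and in females only (2 leaving out each array). The fits in females only were chosen after seeing the data. The other causes were not tested. The labels give the groups no shared replicate numbers, so the array set was the block, with 5 pairs within sets for diet and 4 for genotype. Sex and days are tied to array sets, pools hide the spread between mice, and dim probe sets such as Abcb1b lie close to the background signal.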

Other observations

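Probe sets shared by several genes of these families were not members. 99580_s_at, shared by 8 Ugt1a genes, which conjugate bilirubin and drugs, was 9072 to 12060 in males and 12445 to 21008 in females, without overlap. Its female minus male difference was 0.64 (limma adjusted p = 1.0e-05), and 0.64 with the array set as a block (limma adjusted p = 0.0024). Its Hyp minus normal difference averaged over diets was 0.25 (limma adjusted p = 0.040), and 0.27 with the block (limma adjusted p = 0.047). 162044_f_at, shared by Cyp4b1 and its pseudogene Cyp4b1-ps2, was 595 to 3006 in males and 217 to 1122 in females. It differed by -1.46 between the sexes (limma adjusted p = 2.9e-05) and by 1.10 between genotypes averaged over diets (limma adjusted p = 0.00066), the directions of the Cyp4b1 member. Its low phosphate minus control difference was -0.88 in normal mice (limma adjusted p = 0.13). Averaged over genotypes it was -0.64 (limma adjusted p = 0.076). Both passed once array sets were blocked (limma adjusted p = 0.034 and 0.025). In Hyp mice the diet difference was -0.40 and passed in neither fit.

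Among the 31 probe sets of these families below the minimum, 5 were highest in array 10, the array with high liver markers. Cyp3a11, an abundant liver P450, was 402 there and 3.1 to 92.7 in the other 19 arrays. Cyp2d10 was 143 there against 7.2 to 26.3, Cyp3a25 was 93.3 against 1.0 to 29.7, Cyp2c70 was 116 against 5.3 to 79.6, and Cyp3a13 was 157 against 49.8 to 137. The part of the liver markers in these values was not tested.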
